A study of Mus musculus with 6 samples.

Results

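Cathepsin and legumain genes were examined in infarct tissue of mice that received the Wnt secretion inhibitor LGK-974 or its vehicle after ischemia/reperfusion (I/R) injury. The 10 genes were chosen by name as lysosomal proteases, namely Ctsa, Ctsb, Ctsc, Ctsd, Ctsh, Ctsk, Ctsl, Ctss, Ctsz and Lgmn, out of 36047 genes to which the deposited transcripts could be joined. All 10 passed the filter on low counts. The libraries came from the infarct area of C57BL6 mice aged 12 weeks and were taken 48 h after I/R. The mice were female. There were 3 mice that received LGK-974, a blocker of the enzyme Porcupine, by mouth, and 3 mice that received the vehicle DMSO. All 6 mice had the coronary artery occluded and reopened, so no uninjured heart served as a reference. The labels number the mice as replicates and do not mention pooling.

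Cathepsins are proteases that work mostly inside lysosomes, the acidic compartments in which cells break down proteins taken up from outside or taken from their own cytoplasm. Most of them are cysteine proteases of the papain family, while Ctsd is an aspartic and Ctsa a serine protease. Legumain, encoded by Lgmn, cuts after asparagine and helps to mature several cathepsins. Macrophages, which clear dead muscle from an infarct, hold large amounts of these enzymes and can also release them, and some cathepsins then cut elastin and collagen of the matrix.

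Many lysosomal genes carry an E-box of the letters CACGTG near their start, which transcription factors of the TFEB family bind. The windows of RefSeq for GRCm38.p6, from 250 bases before to 50 bases after each gene start, covered 8 of the 10 genes, and Ctsb and Ctsh were not covered. CACGTG, which reads the same on both strands, was present in the windows of 4 genes, Ctsa, Ctsd, Ctsl and Lgmn, and in 7.15% of all 32851 windows. The longer form TCACGTGA, which contains it and is also its own reverse complement, was present in those of Ctsa and Ctsd and in 0.974% of all windows. GAGGAAGT, a form of the site of the myeloid factor PU.1, lay on either strand in those of Ctsc and Ctss and in 3.2% of all windows, and TCATGTGA in that of Ctss and in 0.986%. Such a match describes the sequence and is not evidence of binding. Short stretches around some of the sites are shown to place them, and any relation of the motifs to the fold changes was not tested. The motif is in capitals and each stretch runs 5′ to 3′ on the strand of its gene.
Ctsd, chr7:142387908-142387937, minus strand, in the first exon of the transcript Ctsd-202: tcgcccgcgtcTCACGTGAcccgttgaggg
Ctsa, chr2:164833749-164833778, plus strand, at the second of 2 starts: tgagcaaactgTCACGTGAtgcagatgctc
Ctsl, chr13:64370740-64370767, minus strand: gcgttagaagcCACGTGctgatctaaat
Lgmn, chr12:102439125-102439152, minus strand, outside annotated exons: ggaatgtctgtCACGTGgtccattttat
Ctsc, chr7:88277923-88277952, plus strand, outside annotated exons, motif on the other strand: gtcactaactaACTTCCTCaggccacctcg
Ctss, chr3:95526773-95526802, plus strand, in the first exon, motif on the other strand: aatgaaagttcACTTCCTCattgtggatgc

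Depth lay between 41579787 and 80398211 estimated counts per library, of which mitochondrial genes held 28.1 to 53.6%. DMSO replicate 1 stood apart from the other libraries. Its log2 levels correlated with theirs at 0.841 to 0.925, the lowest value being that with LGK-974 replicate 3, while the highest correlation of each other library was 0.959 to 0.966. DMSO replicate 1 held 497 counts on 9 cathepsin genes of the placental cluster, genes that heart is not known to use, against 9 to 183 counts in the other 5 libraries. Of the 10 genes studied, 9 had their lowest level of all 6 libraries in DMSO replicate 1, the exception being Ctsk. LGK-974 replicate 3 had the lowest mitochondrial share, 28.1%, and the largest TMM factor of library size, 1.4, and without it the median log2 fold change of the 10 genes was 0.77. Main results are also given without DMSO replicate 1. In bulk tissue, fewer cells of a type and less RNA per cell cannot be told apart.

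The 10 genes were higher on average in LGK-974 treated than in DMSO treated mice, with log2 fold changes (log2FC) from 0.41 for Ctsh to 1.09 for Ctss and a median of 0.69. Over all 20094 tested genes the median was −0.13. In 9 of the 10 genes every LGK-974 library lay above every DMSO library, which was so in 10.7% of all tested genes. By the quasi-likelihood test of edgeR, adjusted over all genes by the method of Benjamini and Hochberg, 0 of the 10 passed an adjusted p-value of 0.05, as did 0% of all genes, and the lowest adjusted p-value was 0.368. An unadjusted p-value under 0.05 with a higher level was found for 8 of the 10 genes, against 6.26% of all tested genes. DESeq2, the program of the study, called 5 of the 10 at an adjusted p-value under 0.05, which were Ctsb, Ctsc, Ctss, Ctsz and Lgmn, against 0.985% of all genes called higher. Limma-voom called 0 of the 10.

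Without DMSO replicate 1, the 10 fold changes stayed positive and their median was 0.60, against −0.02 for all genes. All LGK-974 libraries then lay above both remaining DMSO libraries in 9 of the 10 genes (15.1% of all genes), and 8 had an unadjusted p-value under 0.05 and a higher level by edgeR (7.12% of all genes). DESeq2 called the same 5 genes without that library (2.04% of all genes). Summed over the 10 genes, the 3 LGK-974 libraries had 1388, 1399 and 1571 CPM in replicate order, and the 3 DMSO libraries had 646, 993 and 974 CPM. CPM are counts per 1000000 counts of the library, with the library size scaled by the TMM factors of edgeR. The mean sum was 1.67 times as high with LGK-974, and the sums did not overlap.

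**Figure D1:**
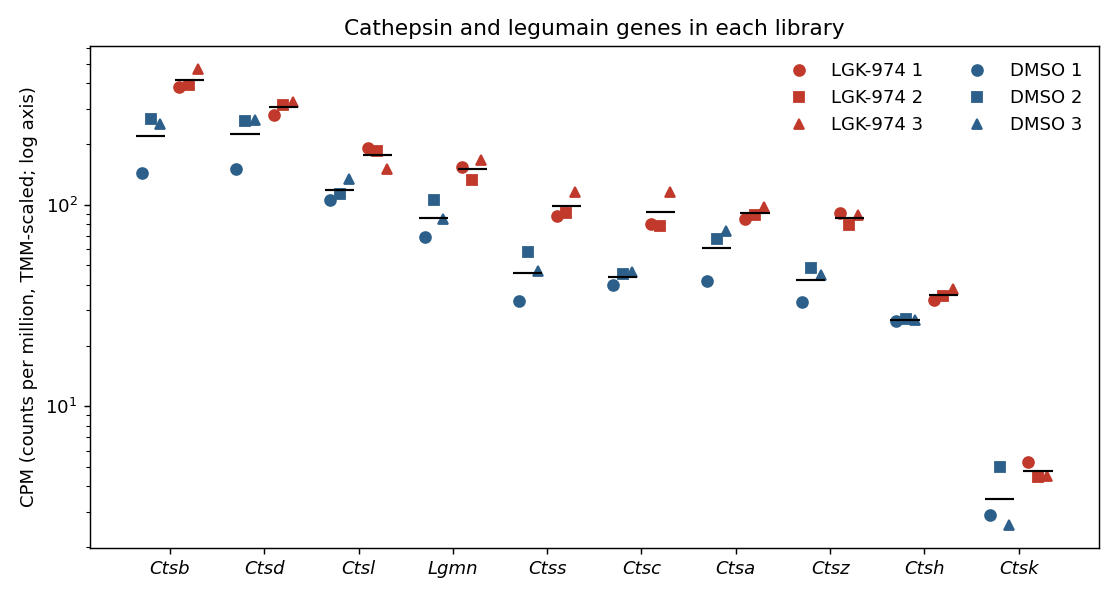
Level of each gene (CPM, log axis) in each of the 3 LGK-974 (red) and 3 DMSO (blue) libraries, with marker shapes for replicates and black lines for group means. Apart from Ctsk, the red points lie above the blue points in each gene, and DMSO replicate 1 is the lowest point in 9 of the 10.

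Ctss, a cysteine protease of antigen-presenting cells that trims the invariant chain of MHC class II and stays active outside the lysosome, had the highest fold change with all 6 libraries, while Ctsc had the highest without DMSO replicate 1. Its gene lies on chromosome 3 of GRCm38 from 95526786 to 95556403. Ctss was expressed at 87.9, 91.3 and 115 CPM in LGK-974 replicates 1, 2 and 3 and at 33.2, 58.0 and 46.7 CPM in DMSO replicates 1, 2 and 3. The groups did not overlap, and the lowest LGK-974 library was well above the highest DMSO library. The mean was 98.1 ± 14.8 CPM (SD, n = 3) against 46.0 ± 12.4 (SD, n = 3), a log2FC of 1.09 with a standard error (SE) of 0.235. The adjusted p-value of Ctss by edgeR was 0.368, as were those of Ctsc, Ctsz, Ctsb and Lgmn. DESeq2 gave Ctss an adjusted p-value of 0.00504. Without DMSO replicate 1 the log2FC was 0.92, and the adjusted p-value was 0.000983 by DESeq2 and 0.254 by edgeR.

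Ctsk, its neighbour on the same strand, is known as the main collagen-cutting cathepsin of bone-resorbing osteoclasts. It lies on chromosome 3 from 95499256 to 95509362 and ends 17424 bases before Ctss starts. Ctsk was expressed at 5.27, 4.46 and 4.53 CPM with LGK-974 and at 2.89, 4.99 and 2.58 CPM with DMSO. DMSO replicate 2 lay above 2 of the LGK-974 libraries, so that the groups overlapped. The log2FC was 0.45 (SE 0.318), and edgeR gave an adjusted p of 0.492. No 31-base stretch of either transcript set was shared with another gene in the transcripts quantified, so reads of Ctsk and Ctss could be told apart. Ctsk was the lowest of the 10 genes in all libraries, with 80.5 to 342 counts per kb. The placental cathepsins had a median of 41.4 counts per kb in DMSO replicate 1, where Ctsk had 87.4 and Ctsj, the highest of them, 86.8.

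Ctsc removes dipeptides from the amino end of proteins and thereby activates the serine proteases of neutrophils, mast cells and cytotoxic lymphocytes. Its levels were 80.6, 78.6 and 115 CPM with LGK-974 and 40.2, 45.2 and 46.4 CPM with DMSO. The DMSO libraries lay close together, with a standard deviation of 3.29 CPM, and DMSO replicate 1 was not apart from the other two. The log2FC was 1.06 (SE 0.196, DESeq2 adjusted p = 0.00124), and 1.01 without that library.

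Ctsz, a carboxypeptidase also called cathepsin X, showed a shift of the same size, with 90.8, 79.1 and 89.0 CPM with LGK-974 and 33.0, 48.7 and 44.7 CPM with DMSO. The log2FC was 1.04 (SE 0.188, DESeq2 adjusted p = 0.00171). Without DMSO replicate 1 it was 0.91, and the adjusted p-value of DESeq2 was 2.1e-05. Among all tested genes, Ctsz and Ctsc had the 25th and 30th smallest p-values of edgeR's test, ahead of the other 8 genes.

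Ctsb, a cysteine protease that cuts both inside proteins and from the carboxyl end, had the highest CPM of the 10 genes with LGK-974. It was expressed at 383, 393 and 473 CPM with LGK-974 and at 144, 265 and 251 CPM with DMSO, without overlap. The log2FC was 0.92 (SE 0.27, DESeq2 adjusted p = 0.0336) and was 0.70 without DMSO replicate 1, where DESeq2 gave 0.00302.

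Lgmn was expressed at 154, 133 and 166 CPM with LGK-974 and at 69.2, 105 and 84.6 CPM with DMSO. The groups were again separate. The log2FC was 0.81 (SE 0.204, DESeq2 adjusted p = 0.0256), and 0.69 without DMSO replicate 1. Its gene lies on chromosome 12 from 102394084 to 102439813.

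Ctsl, a cysteine endopeptidase found in most cell types, was also separate between the groups. Its levels were 190.5, 185 and 151 CPM with LGK-974 and 106, 113 and 135 CPM with DMSO. The log2FC was 0.58 (SE 0.185), and DESeq2 gave an adjusted p of 0.0873. A processed pseudogene, Gm49230, shares exon sequence with Ctsl and was listed at 0 in all libraries.

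Ctsh, mainly an aminopeptidase, had the lowest fold change with all 6 libraries, while Ctsd, Ctsk and Ctsa had lower ones than Ctsh without DMSO replicate 1. It was expressed at 33.5, 35.1 and 38.3 CPM with LGK-974 and at 26.6, 27.2 and 26.9 CPM with DMSO, a log2FC of 0.41 (SE 0.132, adjusted p = 0.368 by edgeR and 0.181 by DESeq2). The value was 0.41 without DMSO replicate 1 as well. The DMSO libraries were nearly equal in the level of Ctsh but not in its transcripts.

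Ctsd, an aspartic protease and one of the most abundant enzymes of the lysosome, was expressed at 278, 311 and 322 CPM with LGK-974 and at 150.1, 259 and 262 CPM with DMSO. The highest DMSO library was thus close to the lowest LGK-974 library, and DMSO replicate 1 was far below both other DMSO libraries. Its log2FC was 0.44 (SE 0.251, adjusted p = 0.416 by edgeR) and 0.24 without that library. Of the 31-base stretches of Ctsd transcripts, 33.2% also occur in Gm49369, an annotated gene on the same strand, so the division of reads between the pair is uncertain. Gm49369 was listed at 40.0 to 60.6 CPM with LGK-974 and 20.1 to 32.6 CPM with DMSO.

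Ctsa, a serine carboxypeptidase that also protects beta-galactosidase and neuraminidase in the lysosome, was expressed at 85.1, 89.1 and 97.7 CPM with LGK-974 and at 41.6, 67.9 and 74.1 CPM with DMSO. Its log2FC was 0.57 (SE 0.231, adjusted p = 0.197 by DESeq2), and 0.37 without DMSO replicate 1. Exons of Ctsa overlap those of Pltp and Neurl2 on the other strand. For Ctsa and Ctsd, the log2FC with all 6 libraries was over 1.5 times that without DMSO replicate 1.

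**Figure D2:**
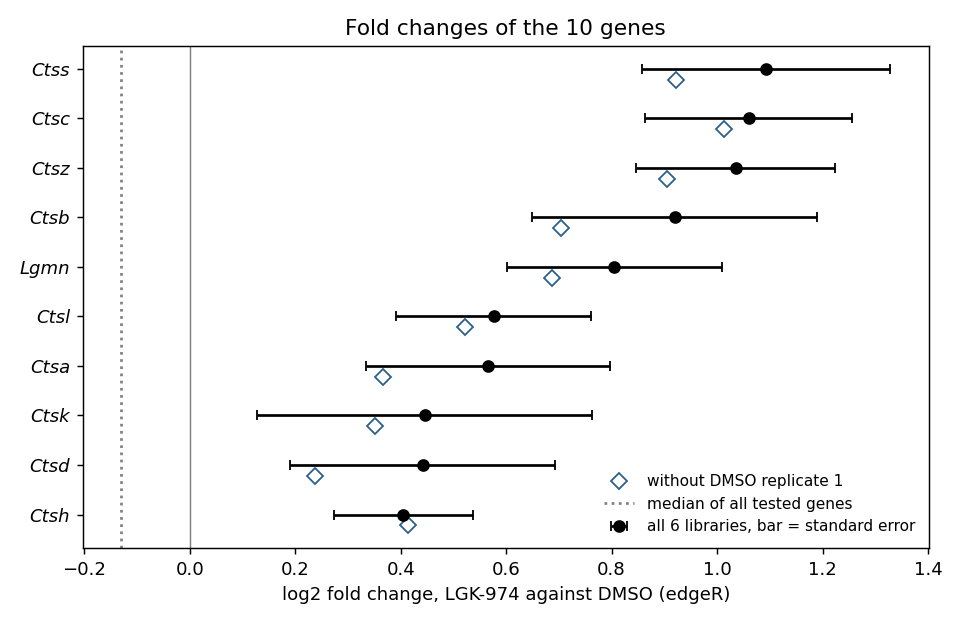
Log2FC of each gene with its standard error from edgeR on all 6 libraries (black), and the value without DMSO replicate 1 (open diamonds). All values lie above 0 and above the median of all tested genes at −0.13 (dotted line), and those of Ctss, Ctsc and Ctsz are about 1.

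The 4 genes with a CACGTG in their window had log2FC values of 0.44, 0.57, 0.58 and 0.81. Ctsc and Ctss, with GAGGAAGT, had 1.06 and 1.09. Ctsk and Ctsz had neither motif in their window and had 0.45 and 1.04. These are descriptions of 8 genes, and no test was made.

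Levels between genes were compared on the TPM scale, which divides by transcript length. Summed over transcripts, Ctsl held the largest share of the TPM of the 10 genes in all libraries, with 20.6 to 28.1% under LGK-974 and 23.2 to 30.9% under DMSO. It was followed in all libraries by Ctsd, with 16.6 to 17.9% and 18.7 to 21.7%, and Ctsk came last with 0.307 to 0.595%. The first place of Ctsl rested on short transcripts. Ctsl-204 and Ctsl-207, which are 698 and 644 bases long, held 101 and 85.5 TPM in LGK-974 replicate 1, against 50.1 for the 1971-base Ctsl-201. With only the transcript of each gene that held most counts, Ctsd ranked first and Ctsb second in all 6 libraries, and Ctsl sixth. Ctss, Ctsz and Lgmn took places 3 to 5 in all 6 libraries, in varying order.

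Shares of the summed TPM do not depend on the scaling of a library and show how the mixture of the 10 proteases differed. Ctss held 8.47, 8.75 and 10.4% in LGK-974 replicates 1, 2 and 3 and 6.85, 7.87 and 6.32% in DMSO replicates 1, 2 and 3. Ctsz held 7.05 to 8.15% with LGK-974 and 5.62 to 6.35% with DMSO. Both shares were higher in every LGK-974 library than in every DMSO library. Ctsd, at 17.4 ± 0.70% against 20.5 ± 1.57% (SD, n = 3 per group), and Ctsh, at 3.20 ± 0.314% against 3.98 ± 0.177% (SD, n = 3 per group), were lower in every LGK-974 library. For each of these 4 shares an exact two-sided permutation test gave p = 0.1, the smallest that 3 mice against 3 allow. Adjusted over the 10 shares, the p-value of this test was 0.25 for each. The shares of a library add up to the whole, so they are not independent of each other. The other 6 shares overlapped between the groups. The share of Ctsh counts all of its transcripts. Those with a retained intron held 74.45% of its counts in DMSO replicate 1 and 22.6 to 30.5% in the other libraries. Its share without these transcripts was not computed.

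In several genes DMSO replicate 1 was apart in the shares of its transcripts. Ctsh-203, which is annotated with a retained intron and holds 1367 bases that are intronic in the main transcript Ctsh-201, took 67.2% of the counts of Ctsh in DMSO replicate 1 and 17.6 to 24.0% in the other 5 libraries. Ctsa-201, of 3646 bases, took 39.7% of the counts of Ctsa there and 12.0 to 15.3% elsewhere. Ctsl-205, of 6168 bases, took 20.5% of the counts of Ctsl there and 2.73 to 7.88% elsewhere. Lgmn-203, a short transcript with a retained intron, took 6.30% of the counts of Lgmn there and 0.92 to 3.16% elsewhere. The long transcript Ctsc-203 showed no such pattern, at 25.6% and 22.6 to 26.4%. Over all genes outside the mitochondrial chromosome, transcripts with a retained intron held 6.58% of the counts in DMSO replicate 1 and 5.82 to 6.28% in the others.

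**Figure D3:**
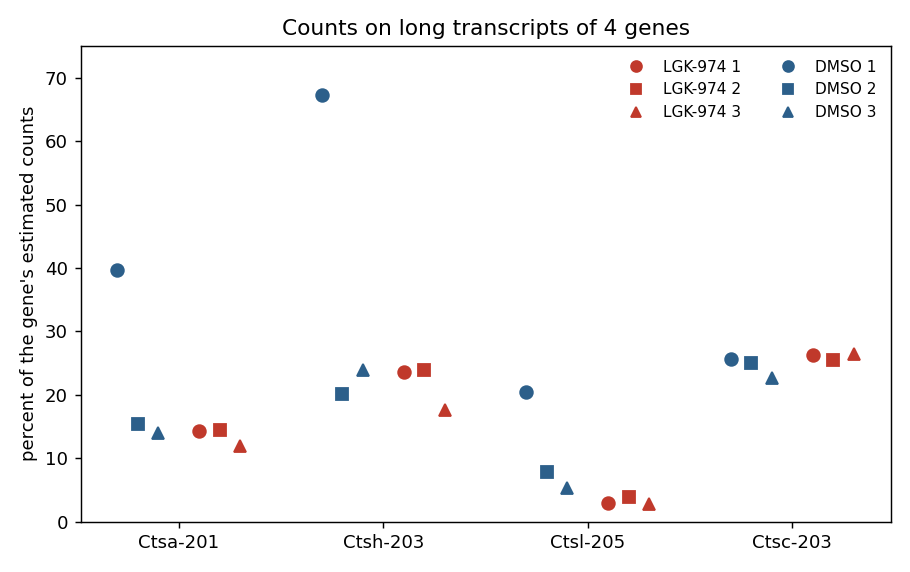
Percent of the estimated counts of a gene that fell on one of its long transcripts, by library (red LGK-974, blue DMSO, shapes for replicates). DMSO replicate 1 lies above the other 5 libraries for Ctsa-201, Ctsh-203 and Ctsl-205, at 39.7, 67.2 and 20.5%, and among them for Ctsc-203.

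With protein-coding transcripts only, Ctsh was expressed at 26.3, 26.3 and 31.1 CPM with LGK-974 and at 8.43, 21.98 and 18.8 CPM with DMSO. The equal levels of the DMSO libraries were thus lost, and the log2FC was 0.76 (SE 0.319, adjusted p = 0.327 by edgeR). The other 9 genes had log2FC values from 0.37 for Ctsk to 1.04 for Ctsc on this scale. This choice was made after the transcript shares were seen.

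Of the cathepsins outside the 10, none had an LGK-974 group wholly above the DMSO group. Ctsf, a cysteine cathepsin, was lower in all LGK-974 libraries than in all DMSO libraries, and was expressed at 5.34 ± 1.62 CPM (SD, n = 3) against 9.01 ± 2.06 (SD, n = 3), a log2FC of −0.76 (SE 0.283, adjusted p = 0.247 by DESeq2). Ctso was at 6.82 ± 0.456 CPM in the LGK-974 group and 6.85 ± 0.49 CPM in the DMSO group (SD, n = 3 per group). Ctse and Ctsw, which is known from cytotoxic lymphocytes, lay below 1 CPM in the mean of both groups, with log2FC values of −0.48 and 0.13 whose signs differed between alternatives. Ctsg, a serine protease of neutrophil granules, had 0 to 17 counts per library and was not tested. Of the 4 tested genes, 0 were higher and 1 lower at an unadjusted p-value under 0.05. The 9 placental cathepsins, of which 5 could be tested, had 0 in either direction.

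Among inhibitors of cathepsins and of other proteases, 2 of 10 tested genes were higher and 1 lower at an unadjusted p-value under 0.05. The higher ones were 20% of the list, against 6.26% of all genes. Cst3, the main secreted cystatin, was at 330 ± 81.2 CPM in the LGK-974 group and 314 ± 96.7 CPM in the DMSO group (SD, n = 3 per group), a log2FC of 0.07 (SE 0.293). Cstb, the cystatin of the cytosol and nucleus, was at 11.8 ± 1.31 and 7.11 ± 2.26 CPM, without overlap, and had a log2FC of 0.72 (SE 0.269). Serpinb1a, an inhibitor of neutrophil serine proteases, had the highest fold change of this list, 1.45 (SE 0.374, adjusted p = 0.0184 by DESeq2). Csta1, of which all LGK-974 libraries were lower, was at 0.162 ± 0.101 and 1.10 ± 1.05 CPM. Its log2FC of −2.75 was −1.60 without DMSO replicate 1, which had 2.31 CPM against 0.517 and 0.467 in the other DMSO libraries. Serpinb9 had a log2FC of 0.39.

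The list of sorting genes holds genes that tag new lysosomal enzymes with mannose 6-phosphate or carry them to the lysosome, and related genes. Of 12 such genes 2 were higher and 0 lower at an unadjusted p-value under 0.05, or 16.7% against 6.26% of all genes. M6pr, the smaller of the mannose 6-phosphate receptors, was at 35.5 ± 2.43 and 23.8 ± 2.48 CPM (SD, n = 3 per group), a log2FC of 0.58 (SE 0.146, adjusted p = 0.0968 by DESeq2). Gnptab, which makes the tag, had 0.51 and Nagpa, which uncovers it, 0.58, with SE of 0.179 and 0.252. For the sorting receptor Sorl1 the value was 0.31 (SE 0.306).

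Of 34 genes of other lysosomal hydrolases and related proteins, 32 had a positive log2FC, with a median of 0.31, and 0.19 without DMSO replicate 1. Of these, 7 were higher at an unadjusted p-value under 0.05 (20.6%) and 0 lower. The smallest p-values were those of Gusb, Pla2g15, Lipa and Hexa, with log2FC values of 0.74, 0.60, 0.56 and 0.63 (SE 0.199, 0.176, 0.181 and 0.224). They encode a glucuronidase, a phospholipase, the acid lipase of cholesteryl esters and a subunit of hexosaminidase. DESeq2 called 0 of the 34.

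Of 7 other lysosomal peptidases 2 were higher at an unadjusted p-value under 0.05, or 28.6% against 6.26% of all genes. They were Dpp7 and Scpep1, with log2FC values of 0.93 and 0.60 (SE 0.282 and 0.184). Tpp1, the tripeptidyl peptidase, had 0.37, and Cpq was lower on average at −0.44. Of 16 genes of lysosomal membrane proteins and their soluble partners 3 were higher (18.8%) and 0 lower. The 3 were Cd68, Npc2 and Cd63, with log2FC values of 1.06, 0.63 and 0.54 (SE 0.236, 0.16 and 0.163). Cd68, a glycoprotein used as a macrophage marker, was the one that DESeq2 called, at an adjusted p-value of 0.00943, and Slc11a1 had a log2FC of 0.65 (SE 0.315). Of 23 subunits of the proton pump that acidifies the lysosome, 1 was higher (Atp6v1a, 0.46) and 0 lower. This share of 4.35% was below the 6.26% of all tested genes. Atp6v0d1, Atp6v0b and Atp6ap2 had 0.51, 0.45 and 0.41.

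**Figure D4:**
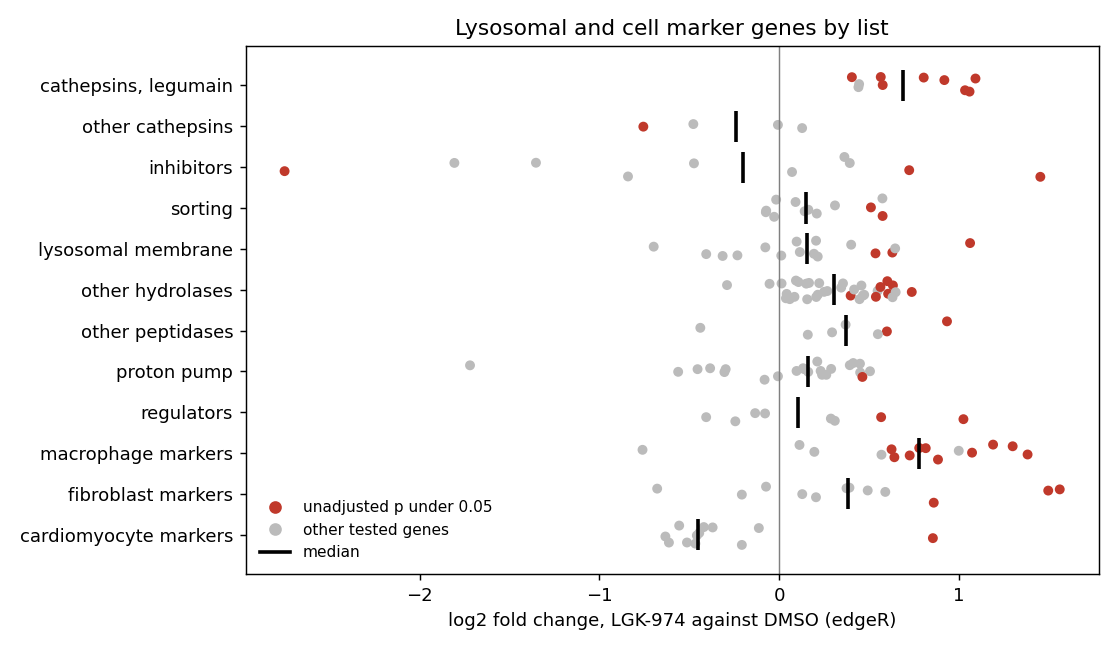
Log2FC of each tested gene by list, red where edgeR's unadjusted p-value was under 0.05, with black bars at the medians. The bar of the cathepsins and legumain lies at 0.69, near that of the macrophage markers at 0.78 and to the right of the other hydrolases at 0.31 and the proton pump at 0.16.

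Of the 8 regulators 2 were higher (25%, against 6.26% of all genes) and 0 lower at an unadjusted p-value under 0.05. Tfeb, the best known activator of lysosomal genes, was at 9.90 ± 1.43 and 10.9 ± 3.29 CPM (SD, n = 3 per group), a log2FC of −0.13 (SE 0.259) whose sign differed between alternatives. Tfe3 and Mitf, of the same family, had 0.31 and −0.41 (SE 0.187 and 0.188). Spi1, which encodes PU.1, was at 16.8 ± 1.84 and 8.25 ± 2.03 CPM (SD, n = 3 per group), a log2FC of 1.03 (SE 0.215, adjusted p = 0.0256 by DESeq2). Irf8, a second myeloid factor, had 0.57 (SE 0.229).

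Most markers of macrophages moved with the proteases. Of 15 such markers 10 were higher at an unadjusted p-value under 0.05 (66.7%, against 6.26% of all genes) and 0 lower. The median log2FC of the markers was 0.78. Their sum was 672 to 776 CPM with LGK-974 and 363 to 501 CPM with DMSO, and no marker of the list was at 0 in any library. Lyz2, Mpeg1, Adgre1 and Mrc1 had the smallest p-values, with log2FC values of 1.30, 1.19, 0.88 and 0.82. The scavenger receptor Cd163 had −0.76 (SE 0.428), Mertk 0.11 and Cx3cr1 0.20, all with overlap. Of 12 general leukocyte markers 11 were higher (91.7%), among them Arhgdib, Cd53, Hcls1 and Laptm5 with 0.86, 1.07, 0.88 and 1.03. The 12 markers summed to 320 to 446 against 199.7 to 244 CPM.

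Fibroblast markers had 3 of 12 higher and 0 lower. The 3 were Postn, Mfap5 and Cthrc1, with log2FC values from 0.86 to 1.56. The log2FC was positive for 9 markers and negative for 3, with a median of 0.38, and 0.26 without DMSO replicate 1. Tcf21, which was not among the 3 higher ones, had a log2FC of 0.59 (SE 0.266) without overlap. Cthrc1 overlapped between the groups, and its value of 1.498 was 0.70 without LGK-974 replicate 3. The list summed to 1001 to 1071 against 565 to 954 CPM. Of 12 cardiomyocyte markers 11 had a negative log2FC, with a median of −0.45. Actc1 was the 1 that was higher at an unadjusted p-value under 0.05 (0.86), or 8.33% of the list against 6.26% of all genes. The sums of these markers overlapped at 42640 to 60530 and 48940 to 67670 CPM. Neutrophil markers, of which 6 of 12 could be tested, summed to 34.7 to 51.0 and 44.3 to 85.0 CPM, with 0 higher and 1 lower, Cxcr2, at −1.03 and −0.28 without DMSO replicate 1. Ly6g, Retnlg, Ngp, Camp and Elane were at 0 counts in at least 1 library. Endothelial, T cell and B cell markers had 0 genes in either direction by edgeR's unadjusted p-value and by DESeq2. The median log2FC of the T cell markers was −0.79, and −0.15 without DMSO replicate 1. The part of cell numbers in the difference of the proteases was not tested.

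Set against the mean log2 level of the macrophage markers of the same library, the 10 genes together differed by 0.06 with overlap. Against the leukocyte markers the difference was −0.11, with overlap. Against the fibroblast markers it was 0.35 and against the cardiomyocyte markers 1.10, both without overlap. Relative to the macrophage markers, 3 of the 10 genes were higher in every LGK-974 library, namely Ctss by 0.42, Ctsz by 0.35 and Ctsc by 0.34 on the log2 scale. With 3 mice against 3, an exact two-sided permutation test cannot give a p-value below 0.1, so none of these ratios could pass 0.05. Ctsb was 0.26 higher and Lgmn 0.12 higher, with overlap. The remaining 5 genes were lower on this scale, from −0.09 for Ctsa to −0.30 for Ctsh, all with overlap. Relative to the leukocyte markers, Ctss and Ctsc were higher in every LGK-974 library, by 0.26 and 0.18. Ctsh was lower in every LGK-974 library on that scale, at −0.46, and Ctsz overlapped. These ratios count all transcripts. Ctsh in DMSO replicate 1 was at 26.6 CPM with all transcripts and at 8.43 CPM with protein-coding transcripts only. Ratios from protein-coding transcripts were not computed. The share of all genes that separate on such ratios was not computed.

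**Figure D5:**
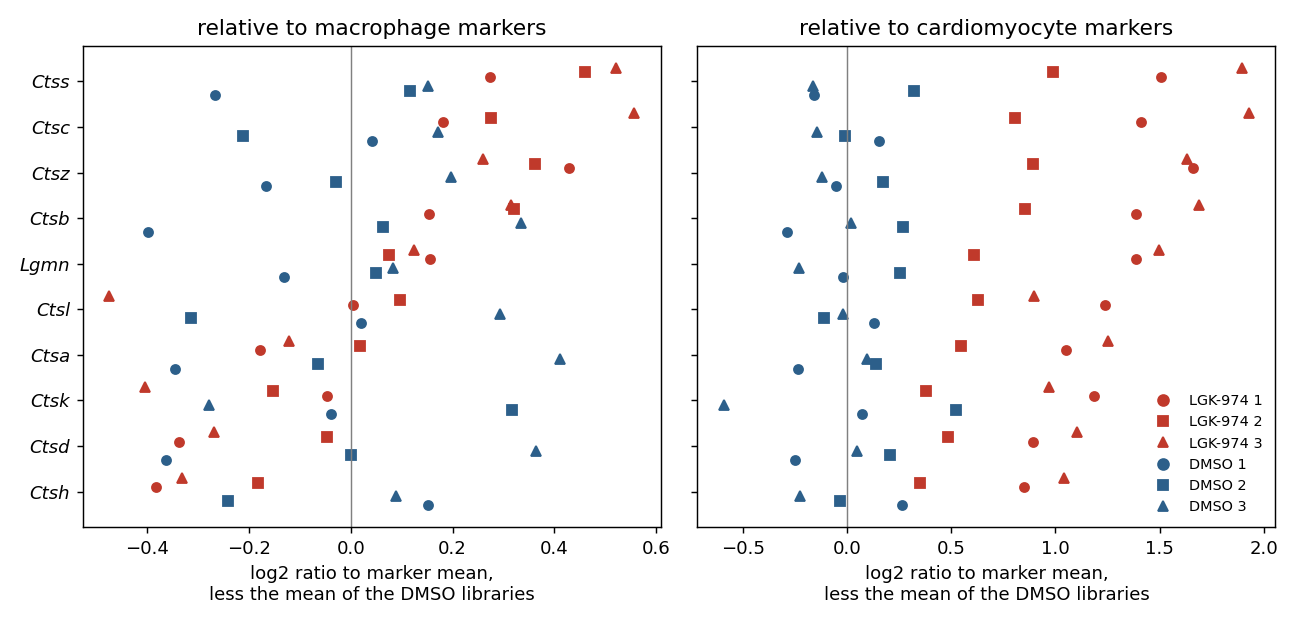
Log2 level of each gene less the mean log2 level of the macrophage markers (left) or cardiomyocyte markers (right) in the same library, shown as the difference from the mean of the DMSO libraries. On the left, red (LGK-974) and blue (DMSO) points are separate for Ctss, Ctsc and Ctsz, and on the right they are separate for all genes but Ctsk.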

How the data were processed

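RNA was sequenced from infarct tissue of 6 mice. According to the methods, ribosomal RNA was depleted with RiboZero, libraries were made with the TrueSeq RNA Access kit, and Kallisto quantified transcripts on an index of GRCm38 (its version is not given in the sources used here). The deposited file of each library lists 118489 transcripts with their length, the estimated count and the TPM that the authors' quantification gave.

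Transcripts were joined to genes with GENCODE M21 (98.6% joined), and the counts of a gene's transcripts were added up and rounded. Genes reaching 10 counts in 3 or more libraries were tested with edgeR 4.0.16 (R 4.3.3), with TMM factors, a model of treatment alone and a threshold of 0.05 after Benjamini-Hochberg adjustment. DESeq2 1.42.0 and voom of limma 3.58.1 were alternatives. Log2 CPM used a prior count of 2. Python 3.11.15 with pandas 2.3.3 and SciPy 1.17.1 was used for permutation tests and matplotlib 3.10.9 for plots. The tests were tested on simulated data.

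Genes and lists were chosen with earlier results of these data known. Beside the 10 genes and the other cathepsins, up to 4 genes with the smallest p-values were named per list, along with Tfeb, Tfe3, Mitf, Spi1, Cst3 and Cstb. The same rule covered the lists of placental cathepsins, cardiomyocytes, neutrophils, endothelial, T and B cells, but these are given by counts and sums only, except Actc1, Cxcr2 and Ctsj. These 3 and Tg, Eln, Sparc, Col1a1, Cd163, Mertk and Cx3cr1 were named after their values were seen. P-values of the fits set the difference between the groups against the estimated spread between these mice. Counts fall on annotated transcripts, so values of genes with shared sequence are uncertain. Precision was set by the 3 mice per group, and for Ctsk also by low counts.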

Additional observations from a re-analysis of the deposited data

How the results depend on the processing

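In all 170 fits of the 10 genes under alternatives, the log2FC kept a positive sign, and their median stayed between 0.59 and 0.87. Genes at an adjusted p-value under 0.05 numbered 0 in the reported fit, 315 with DESeq2, 326 with DESeq2 without DMSO replicate 1 (chosen after seeing the data) and 1206 with edgeR without a filter on low counts. Of the 10 genes, 5, 5 and 3 were called in these fits, the last being Ctsc, Ctss and Ctsz, and the cause was not tested. The median of all genes was −0.75 with DESeq2 and −0.55 without a filter. At an unadjusted p-value under 0.05 the reported fit had 2699 genes, DESeq2 4477 and the fit without a filter 4790. Leaving out one mouse at a time gave 0 to 2 genes at an adjusted p-value and 821 to 4628 at an unadjusted one. The lowest count was that without LGK-974 replicate 3, followed by 1526 without LGK-974 replicate 1, and the highest that without DMSO replicate 3. Of the 10 genes, 6 to 8 then had an unadjusted p-value under 0.05, and 0 passed an adjusted one. Ctsk, at 0.45, had 0.78 without DMSO replicate 2, and Ctsd, at 0.44, had 0.67 without DMSO replicate 3.

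A fit with the replicate block gave 0 genes at an adjusted p-value, 3312 at an unadjusted one and 8 of the 10 genes at an unadjusted one, with a median of 0.71 for the 10. Whether mice with the same number share more than that number cannot be told from 3 mice per group. The correlations of their deviations from the group means were 0.475, −0.0482 and 0.391. Mice with different numbers had −0.518 to 0.1, and not every mouse correlated best with its own number.

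Among the other genes named, signs changed for 7. Ctso, at −0.01, was 0.0155 with the size factors of DESeq2, 0.0256 with DESeq2, 0.0311 with DESeq2 without DMSO replicate 1, 0.149 without a filter, and −0.0775 to 0.132 with one mouse left out. Eln, at −0.09, was 0.036 without a filter and −0.211 to 0.0953 with one mouse left out. Tfeb was 0.234 on counts scaled from TPM, and −0.337 to 0.179 with one mouse left out. The latter range was −0.131 to 0.396 for Cst3, −0.738 to 0.509 for Ctse, −0.204 to 0.359 for Ctsw and −0.0529 to 0.591 for Sorl1. With DESeq2 without DMSO replicate 1, Cst3 was −0.146 and Ctse 0.494.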

Other observations

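Of 10 genes of matrix and other proteins that cathepsins are known to cut, 6 were higher and 1 lower at an unadjusted p-value of edgeR under 0.05. The higher ones were 60% of the list, against 6.26% of all genes, and the median log2FC of the list was 0.85. DESeq2 called 6, of which Fbn1, Col3a1, Col1a2 and Sparc were also called without DMSO replicate 1, and Fn1 and Col1a1 were not. Fn1, the gene of fibronectin, was at 1047 ± 585 CPM in the LGK-974 group and 306 ± 63.8 CPM in the DMSO group (SD, n = 3 per group), a log2FC of 1.77 (SE 0.414, adjusted p = 4.6e-04 by DESeq2, and 0.1345 without DMSO replicate 1). Fbn1, which encodes the fibrillin of elastic fibres, had 0.88, and the collagen genes Col3a1 and Col1a2 had 1.14 and 1.07 (SE 0.239, 0.319 and 0.317). In these 4 genes the groups did not overlap. Eln, the gene of elastin, had −0.09 (SE 0.168) with overlap, and its sign differed between alternatives. The 1 that was lower was Tg, the gene of thyroglobulin, at −1.36, and −0.87 without DMSO replicate 1.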
